A study of Homo sapiens with 6 samples.

Results

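GSE1 is a subunit of corepressor complexes that contain the histone demethylase LSD1, the scaffold CoREST and histone deacetylases. These complexes remove active marks from chromatin and are brought to DNA by sequence-specific factors. Introns of protein-coding genes hold many enhancers, stretches at which such factors bind away from the start of a gene, and long introns of haematopoietic regulators such as RUNX1 are known for them. The peaks described here are those that V5-tagged GSE1 gave inside introns and away from start sites in NB4 cells.

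NB4 is a human acute promyelocytic leukaemia line. Cells were transduced with a lentiviral pLEX_307 vector that expressed V5-tagged GSE1 (transcript variant 2), or with the empty vector (EV). GSE1-expressing cells received the LSD1 inhibitor MC2580 at 2 µM or its vehicle DMSO for 24 h, and chromatin was precipitated with an anti-V5 antibody. The series held 3 ChIP and 3 input libraries, 1 per group, so that no replicate error exists and differences between conditions are differences between single libraries. The tagged protein came from a vector in addition to the cells' own GSE1, which the antibody does not detect.

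Of the 21401 peaks called in DMSO-treated cells, 2183 met the rule. They lay whole within the span of a GENCODE version 44 protein-coding gene, overlapped no annotated exon of any gene, and were more than 3 kb from every annotated transcription start site (TSS). Chromosomes 7, 8, 9, 12 and 19 were left out by the rule, and the 18 chromosomes that remained held 9214 DMSO peaks. The intronic peaks were thus 23.7% of these, beside 3552 peaks within 3 kb of a TSS (promoter class) and 2348 distal intergenic peaks. They fell in 1270 host genes. For 306 of them (14.0%) the host's canonical transcript had no intron at the peak, since only another transcript of the gene reaches there.

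The sequence at the centre of these peaks is shown first. The words of 3 blood-lineage factor families were searched in the 200 bp at each centre, on both strands: TGTGGTTT for RUNX, GAGGAAGT for PU.1 and AGATAAG for GATA. For each, the highest-scoring intronic peaks that hold the word were chosen after their values were seen, from peaks with and without an overlap in the MC2580 list. The score, given by the peak caller, is higher for a smaller p-value. Sequences are from hg38, read 5′ to 3′ on the strand that carries the word, which is in capitals.

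ELK4 (RUNX word, chr1:205605223-205605320, hg38, plus strand): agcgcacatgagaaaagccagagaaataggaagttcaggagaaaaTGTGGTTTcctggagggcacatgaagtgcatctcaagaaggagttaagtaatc
SH3RF3 (RUNX word, chr2:109214176-109214273, hg38, plus strand): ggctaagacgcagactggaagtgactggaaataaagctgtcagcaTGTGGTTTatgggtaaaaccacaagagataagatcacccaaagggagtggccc
HDAC4 (RUNX word, chr2:239265329-239265426, hg38, plus strand): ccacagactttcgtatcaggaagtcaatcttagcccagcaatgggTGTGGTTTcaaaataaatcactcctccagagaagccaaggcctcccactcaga
RAB27A (RUNX word, chr15:55282383-55282480, hg38, plus strand): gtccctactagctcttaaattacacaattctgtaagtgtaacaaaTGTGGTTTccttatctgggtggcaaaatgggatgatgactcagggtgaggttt
DOCK9 (PU.1 word, chr13:99046363-99046460, hg38, plus strand): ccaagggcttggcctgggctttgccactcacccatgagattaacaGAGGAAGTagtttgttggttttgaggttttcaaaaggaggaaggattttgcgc
MYO7A (PU.1 word, chr11:77152006-77152103, hg38, plus strand): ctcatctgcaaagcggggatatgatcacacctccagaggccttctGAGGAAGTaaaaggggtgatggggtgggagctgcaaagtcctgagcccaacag
TOX2 (GATA word, chr20:43950331-43950427, hg38, plus strand): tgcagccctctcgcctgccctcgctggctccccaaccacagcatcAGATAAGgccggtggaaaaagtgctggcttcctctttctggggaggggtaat
RBKS (GATA word, chr2:27804361-27804457, hg38, minus strand): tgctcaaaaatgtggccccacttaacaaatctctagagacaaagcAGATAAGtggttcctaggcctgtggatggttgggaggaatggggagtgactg

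The ELK4 and SH3RF3 stretches came from peaks that overlapped an MC2580 peak, with scores of 1269.82 and 973.33. The HDAC4 and RAB27A stretches came from peaks that did not, with scores of 905.28 and 384.23. HDAC4 encodes a histone deacetylase, and RAB27A a GTPase of granule transport. The SH3RF3 stretch holds 2 RUNX words, on opposite strands, and a GATA word. The HDAC4 stretch also holds the GFI1 word AAATCAC. The RAB27A stretch also holds a GATA word, on the opposite strand, and TGACTCA, a match to the AP-1 word given below. The DOCK9 and MYO7A stretches stand for PU.1, with scores of 1784.08 (overlapping) and 400.25 (not overlapping). TOX2, which encodes an HMG-box factor, and RBKS stand for GATA, with scores of 1726.98 (overlapping) and 512.26 (not overlapping).

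Except for that of GFI1, the words were more frequent at the peak centres than beside them. This was not particular to intronic peaks. In the promoter class and in distal intergenic peaks the RUNX word was in 6.36% and 7.03% of centres, against 1.27% and 1.70% of flanks, and the other words were more frequent at centres there too. The RUNX word occurred in 199 of the 2183 central windows, or 9.12% (Wilson 95% interval 7.98 to 10.4), against 1.37% of windows 2000 bp to each side and 1.84% of all 200 bp tiles of sequence in which such a peak could lie. The PU.1 word occurred in 4.81% (3.99 to 5.79) of centres, against 1.10% of flanks and 1.02% of tiles. AP-1, the Fos and Jun family, was searched as TGANTCA and found in 13.4% of centres, 6.21% of flanks and 6.20% of tiles. The CEBP word ATTGCNNAA occurred in 6.18% of centres, against 2.27% of flanks and 2.85% of tiles. For GATA the values were 4.63%, 2.31% and 2.96%. The word of GFI1, a repressor that recruits LSD1, occurred in 3.48% of centres, 3.57% of flanks and 4.18% of tiles, so that it was no more frequent at the centres than in the flanks. This held for intronic peaks only. In the promoter class the GFI1 word was in 4.25% of centres and 3.22% of flanks, and in distal intergenic peaks in 3.92% and 2.90%. Of all intronic peaks, 747 (34.2%) held at least 1 of the 6 words. The centres had a median GC content with a 95% interval of 49.5 to 50.5%, the flanks a median of 46.0% and the tiles a mean of 40.5%, and the part of base composition in the word counts was not tested. A word is a match of letters and not a shown binding site.

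**Figure D1:**
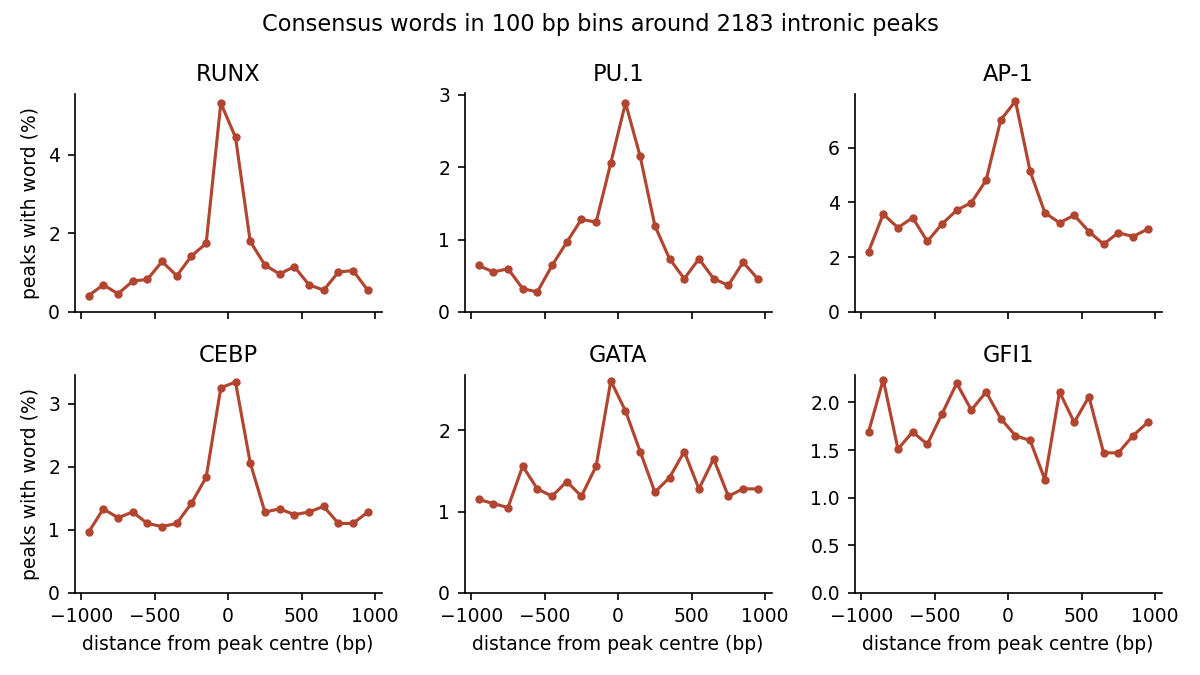
Share of the 2183 intronic peaks that hold each consensus word (y axis, %) in 100 bp bins by distance from the peak centre (x axis, bp), with 1 panel per factor. RUNX reaches 5.31% and PU.1 2.89% in a bin next to the centre, while GFI1 has no maximum there.

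The share of peaks with a RUNX word was higher in each higher score class, given here with no test. The word was found in 5.49% of the lowest score quintile of the intronic peaks and in 7.34%, 10.3%, 10.8% and 11.7% of the next ones. PU.1 words showed no such order, with 4.58% in the lowest and 4.12% in the highest quintile. Words of both RUNX and PU.1 stood together in 8 peaks.

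The second question was which intronic peaks were also found after LSD1 inhibition. A 1 bp overlap with an MC2580 peak was present for 448 of the 2183, or 20.5% (Wilson 95% interval 18.9 to 22.3). Over all DMSO peaks of the 18 chromosomes the share was 25.4%, so that intronic peaks lay below this background. The whole DMSO list, which also holds the chromosomes left out, had 33.6%. Intronic peaks of all of chromosomes 1 to 22 and X had 28.6%, so that both shares were higher with those chromosomes included. In the promoter class 816 of 3552 peaks overlapped (23.0%), and among distal intergenic peaks 772 of 2348 did (32.9%). The odds of an overlap were lower for intronic than for intergenic peaks by an odds ratio of 0.527 (0.461 to 0.603) in a Fisher's exact test, two-sided, with a Benjamini-Hochberg adjusted p = 9.81e-21 over 2 comparisons. The same direction was seen on 15 of 18 chromosomes. Against the promoter class the odds ratio was 0.866 (0.760 to 0.986, exact test, adjusted p = 0.0304). Within score deciles it was 0.891, a similar size, with a wider Mantel-Haenszel interval of 0.759 to 1.05 that includes 1. With the start sites of protein-coding genes only it was 0.998 (0.868 to 1.15), so that this difference depended on which start sites were counted. These tests compare peaks within the DMSO list and do not test the treatment, since peaks are not replicates. They also count each peak as independent, although 1335 of the 2183 shared a host gene with another, so that p-values and intervals may be too small.

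The overlap depended on how strong the peak was in DMSO. In the lowest score decile of DMSO peaks 1.35% of the intronic peaks overlapped an MC2580 peak, in the sixth 9.36%, in the eighth 35.2% and in the highest 85.0%. Distal intergenic peaks were at 5.73%, 24.8%, 42.5% and 90.1% in the same deciles. The part of the lower score limit of the MC2580 list in this rise was not tested. Within score deciles the odds ratio of intronic against intergenic peaks was 0.501 (Mantel-Haenszel interval 0.422 to 0.594). Of the 125 intronic peaks with a score of at least 500, 114 overlapped an MC2580 peak, and of the 33 with at least 1000, 31 did.

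**Figure D2:**
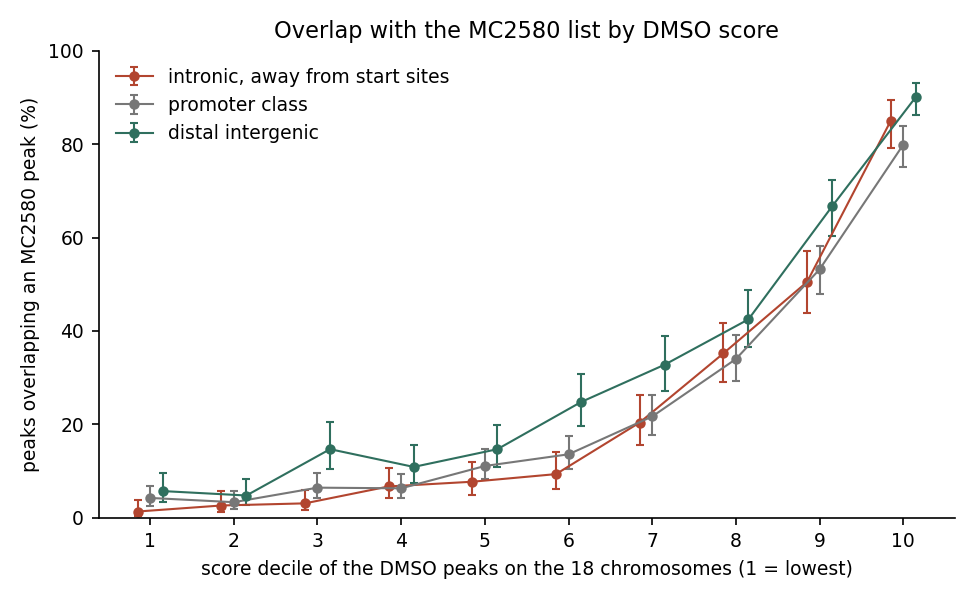
Share of DMSO peaks that overlap an MC2580 peak by at least 1 bp (y axis, %) in each score decile of the DMSO peaks on 18 chromosomes (x axis), for intronic, promoter-class and distal intergenic peaks, with Wilson 95% intervals as bars. The share of intronic peaks rises from 1.35% to 85.0%, and intergenic peaks lie above them in each decile.

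Overlapping intronic peaks had a median DMSO score of 252 (95% interval 238 to 277) and a median width of 1162 bp. Those without an overlap had a median score of 78.3 (76.3 to 80.2) and a width of 918 bp. The nearest MC2580 peak to a non-overlapping one lay at a median of 77.5 kb. It was within 1 kb for 56 of the 1735 (3.23%) and within 10 kb for 325 (18.7%). In the MC2580 list 876 peaks met the same rule. Of these, 449 (51.3%) overlapped an intronic DMSO peak and 476 (54.3%) overlapped any DMSO peak.

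Where 1 intronic DMSO peak met 1 MC2580 peak and neither met another (428 pairs), the MC2580 score was lower in 405 (94.6%). The median ratio of the MC2580 to the DMSO score was 0.382 (0.353 to 0.407). Some 1 Mb bins held 40 or more peaks when the lists were combined, and are called dense bins. In these the median ratio was 0.558 over 59 pairs, and outside them it was 0.368 over 369. A score depends on sequencing depth, which is unknown for both libraries, so that depth and binding cannot be told apart in this ratio.

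**Figure D3:**
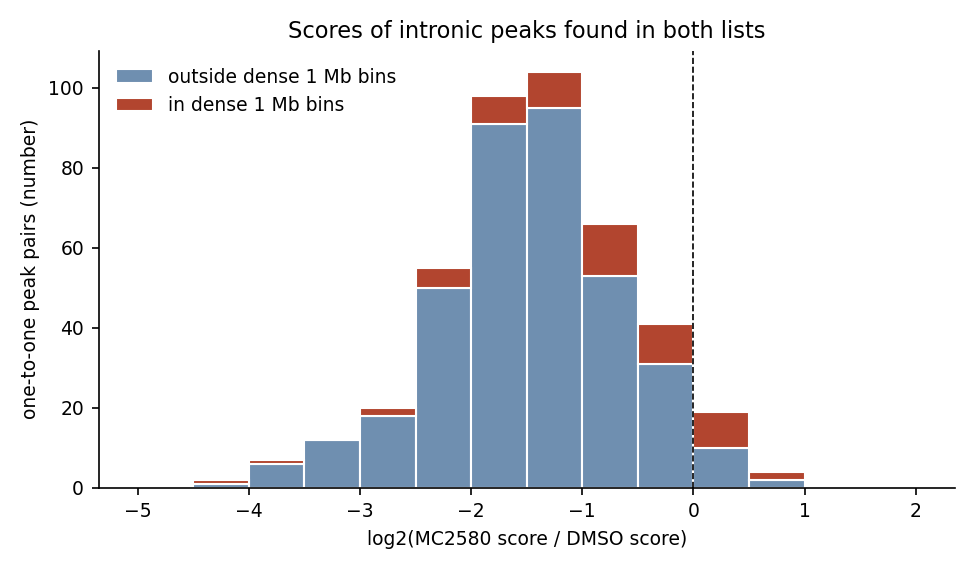
Number of one-to-one peak pairs (y axis) by log2 of the MC2580 score over the DMSO score (x axis), with pairs in dense 1 Mb bins stacked on the others and the dashed line at equal scores. Most of the 428 pairs lie left of the line, and 405 have the lower score in MC2580.

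Among the highest overlapping peaks, that in ZFYVE28 had a score of 2782.93 in DMSO and 922.81 in MC2580. It lay in the first intron (chr4:2412433-2414781) and in a dense bin. The peak in ZFHX3, a homeobox factor gene, had 2708.34 and 586.06, and that in RBM47, which encodes an RNA-binding protein, 2491.28 and 181.71. PECAM1 encodes the adhesion molecule CD31, and a peak in its last intron (chr17:64326079-64327672) had 2486.44 and 457.47. The other overlapping peaks of the highest 8 lay in DOCK9, TOX2, DIS3L2 and ARAP1, with DMSO scores from 1523.79 to 1784.08. All 8 had a lower MC2580 score.

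The highest peak without an MC2580 counterpart lay in MAP3K20, a stress-activated kinase gene (chr2:173264237-173265558), with a DMSO score of 1099.17 and the nearest MC2580 peak 93.2 kb away. TOX2 held the next, with 1034.1, although its peak of 1726.98 in the same first intron overlapped. HDAC4 followed with 905.28 in intron 2. The peak in LRRC8C, with 894.79, had an MC2580 peak 2.24 kb away. The last of the 8 lay in SGMS1, HPS3, MXD1 and SNX27, with scores from 579.81 to 809.79. MXD1 encodes a MYC antagonist of differentiating cells.

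Pooled over all genes, the peaks were denser in first introns than in later ones. First introns held 689 of the peaks (31.6%, 29.6 to 33.5) but 20.7% of the eligible sequence, that is 4.60 peaks per Mb against 2.46 in later introns. Outside the introns of canonical transcripts there were 3.35 per Mb. Introns of the same gene were not compared with each other. Eligible sequence means bases in a protein-coding gene, outside exons and over 3 kb from a TSS. Of overlapping peaks 34.4% lay in first introns and of the others 30.8%, a difference that did not pass the test (odds ratio 1.17, 0.943 to 1.46, Fisher's exact test, p = 0.154). The median distance to the nearest TSS was 11177 bp, and 27 peaks were over 100 kb away. Overlap was 20.8% (18.4 to 23.5) at 3 to 10 kb, 21.3% (18.7 to 24.2) at 10 to 30 kb, 18.2% (14.3 to 22.9) at 30 to 100 kb and 11.1% (3.85 to 28.1) beyond, where 3 of 27 peaks overlapped. The peak nearest inside the 3 kb limit lay in SRGN at 3001 bp with a score of 88.04, and the nearest outside lay in LY86 at 2992 bp with 112.66.

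The frequency per Mb of eligible sequence was 3.02 over the 18 chromosomes. It was highest on chromosomes 10 (6.41) and 20 (6.34) and lowest on X (0.591). On chromosome 10, 106 of 313 intronic peaks lay in dense bins, and on chromosome 4, 131 of 224. Chromosome 20 had none in a dense bin. In all, 268 intronic peaks (12.3%) lay in dense bins, and 26.5% of these overlapped an MC2580 peak against 19.7% of the others. What makes these bins dense was not tested.

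Several peaks often shared a host. A single intronic peak was found in 848 genes, 2 in 237 and at least 3 in 185, and the last held 861 peaks (39.4%). In 108 of the 185 genes some of the peaks overlapped an MC2580 peak and others did not, in 76 none did, and in 1 all did. The share of overlapping peaks was 17.5% (15.0 to 20.2) in genes with 1 peak, 20.5% (17.1 to 24.3) with 2, 18.8% (15.6 to 22.4) with 3 to 5 and 30.6% (26.0 to 35.6) with at least 6, so that it did not rise step by step. The last class included DUSP22 (9 of 11) and ANKRD30A (8 of 9), which lay wholly in dense bins and are named here after their values were seen. Among hosts with no peak in a dense bin the shares were 17.2%, 19.9%, 18.8% and 31.4% (25.4 to 38.0). Hosts with at least 6 peaks were also longer than those with 1, with a median span of 244 kb against 89.0 kb. Of 913 pairs of neighbouring intronic peaks in 1 host, both overlapped in 63 (6.90%), 1 in 298 (32.6%) and neither in 552 (60.5%). In hosts with at least 2 peaks 22.5% of the peaks overlapped, and whether neighbours were more alike than this share gives was not tested. A promoter-class peak was present for 440 of the 1270 hosts (34.6%), and for 11.3% of the other protein-coding genes with eligible sequence. Among hosts it was present for 28.5% with 1 intronic peak and for 67.5% of the longer hosts with at least 6. Gene length was not taken into account in these shares.

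ZMIZ1, which encodes a transcriptional coregulator, held the most peaks, 23 on chromosome 10, with scores from 52.34 to 593.08. Of these 5 overlapped an MC2580 peak, and all 23 lay in dense bins. The strongest was in intron 8, with 593.08 in DMSO and 190.71 in MC2580. INPP5A, a phosphatase gene of inositol phosphate signalling, had 15, also in dense bins, of which 9 were in the first intron and 6 overlapped. Its strongest peak had 815.24 in DMSO and 125.9 in MC2580. DUSP22, a dual-specificity phosphatase gene, had the closest spacing of the 12 hosts with most peaks, with 11 peaks at a median of 1.69 kb, all in dense bins, and 9 overlapped. Only 2 of these 9 were one-to-one pairs, and the other 7 shared an MC2580 peak or met several. SORCS2 stood at the other end, with 1 of 12 overlapping and a highest score of 162.28.

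**Figure D4:**
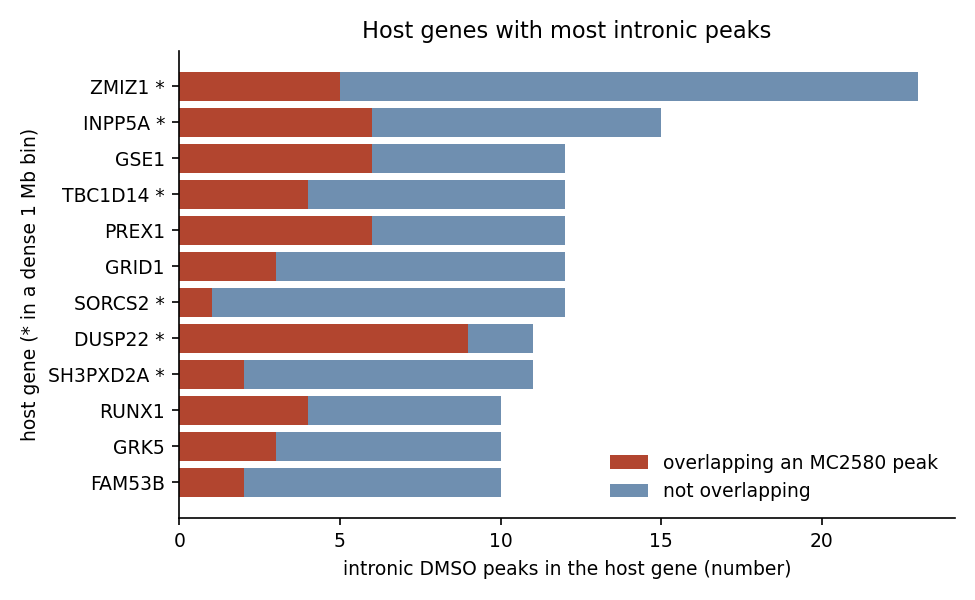
Number of intronic DMSO peaks (x axis) in the 12 host genes that held most, split by overlap with an MC2580 peak. ZMIZ1 has 23 peaks with 5 overlapping, and DUSP22 has 11 with 9 overlapping.

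Outside dense bins GSE1, PREX1 and GRID1 led with 12 each. The 12 peaks of the GSE1 gene itself lay outside the introns of its canonical transcript. It had 6 overlapping peaks, all scoring over 200 in DMSO. Their DMSO scores were 493.56, 332.74, 683.61, 268.55, 203.37 and 354.31 from the 5′ end of the gene, and the MC2580 scores were 291.09, 197.92, 211.79, 97.89, 117.82 and 53.83. Its other 6 peaks had DMSO scores from 55.32 to 108.63. Overlapping and non-overlapping peaks of GSE1 did not share a score range. In PREX1, which encodes an exchange factor for Rac in neutrophils, 8 of 12 peaks lay in the first intron. The strongest had 524.01 in DMSO and 64.44 in MC2580. Here the ranges met, since a peak of 70.25 overlapped and one of 145.03 did not.

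RUNX1, the core-binding factor gene of definitive haematopoiesis, held 10 intronic peaks, none in the first intron of its canonical transcript. The 2 strongest lay in intron 2, at chr21:34907672-34909206 with 1145.61 in DMSO and 588.44 in MC2580, and at chr21:35025721-35027603 with 1036.66 and 403.53. A peak in intron 5 had 393.2 and 155.66, and a last one in intron 2 had 171.42 and 53.95. Between the pair in intron 2 a peak of 227.15 had its nearest MC2580 peak 38.1 kb away. The other 5 that did not overlap had scores from 63.75 to 154.8, and 4 of these lay in the part of the gene that only longer transcripts cover.

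**Figure D5:**
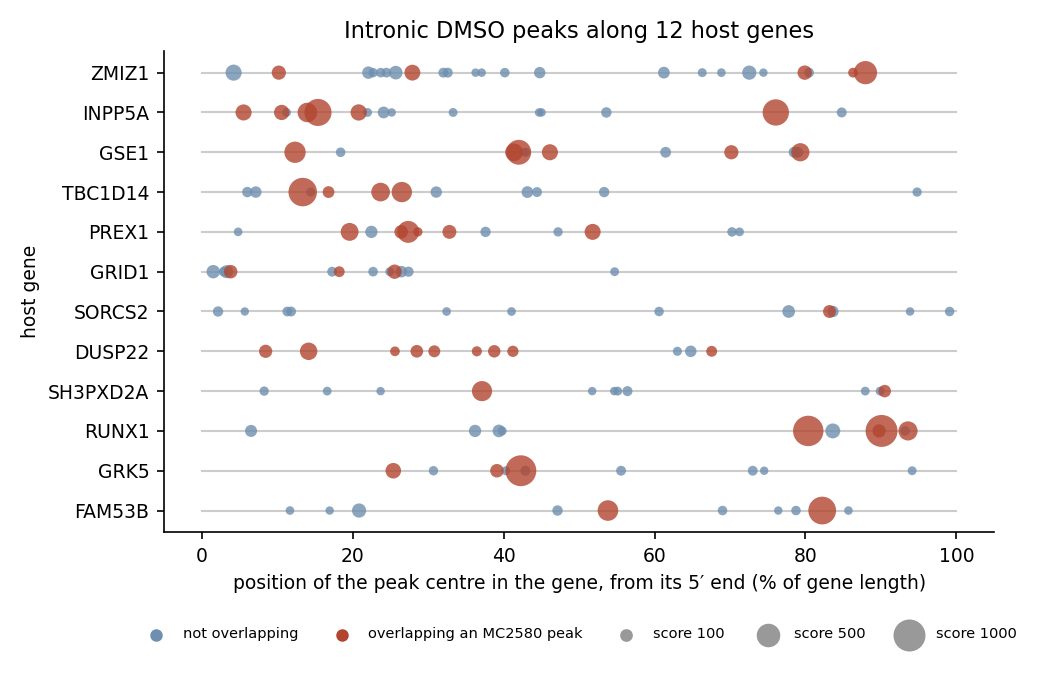
Position of each intronic peak centre along the 12 host genes (x axis, % of gene length from the 5′ end), with colour for overlap with an MC2580 peak and point size for the DMSO score. Overlapping and non-overlapping peaks lie side by side within each gene, and the highest-scoring peak of each of the 12 genes is an overlapping one, with 1145.61 in RUNX1.

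Gene lists chosen for myeloid biology gave the other hosts. Of 37 haematopoietic transcription factor genes with eligible sequence 16 were hosts, with 45 peaks and 14 overlapping (31.1%). Over all genes 11.1% were hosts, 20.5% of the peaks overlapped, and there were 3.02 peaks per Mb of eligible sequence. The list had 8.43 peaks per Mb. These counts are descriptions, since the lists were chosen with earlier results known and long genes have more sequence in which a peak can lie. Overlap also rose with the DMSO score, and the overlapping shares of the lists were not adjusted for it. After RUNX1 the list was led by ETS1 with 6 peaks and ZBTB16 with 5, of which 3 overlapped and the highest had a DMSO score of 957.49. ZBTB16 encodes PLZF, a fusion partner of RARA in a rare form of promyelocytic leukaemia. BACH2 had 4 peaks and none overlapped.

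Of 32 kinase, phosphatase and adaptor genes 20 were hosts, with 6.40 peaks per Mb, and 6 of their 40 peaks overlapped (15.0%, against 20.5% over all intronic peaks). ARHGAP26 had 5 peaks up to 1332.19, and the single peak of CBL, the ubiquitin ligase that turns over receptor kinases, had 635.13 and overlapped. LSD1-CoREST and partner corepressor genes were hosts in 8 of 26 cases (30.8%, against 11.1% of all genes), with 13.0 peaks per Mb and 7 of 27 peaks overlapping (25.9%). Of the 27 peaks, 12 were those of GSE1, and so were 6 of the 7 that overlapped. CTBP2, a corepressor gene, had 6 peaks with 1 overlapping. Cytokine receptor and JAK-STAT genes were hosts in 10 of 23 (43.5%), with 15.6 peaks per Mb and 3 of 13 peaks overlapping (23.1%). These 3 lay in FLT3 and CSF1R, which encode receptor kinases of blood progenitors and monocytes, and in IL17RA. Nuclear receptor genes were hosts in 5 of 16 (31.2%), but their 2.80 peaks per Mb and their overlap of 20.0% were close to the 3.02 and 20.5% over all genes. Both overlapping peaks among their 10 were in PPARD, while RARA had 2 peaks of 99.73 and 145.33 without an overlap. Adhesion and surface receptor genes were hosts in 4 of 22 (18.2%), with 8.54 peaks per Mb, and the 2 of 6 peaks that overlapped were in PECAM1 and CD86.

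Last, the words were compared between intronic peaks with and without an MC2580 overlap. GATA words were found in 32 of 448 overlapping peaks (7.14%) and 69 of 1735 others (3.98%), an odds ratio of 1.86 (1.20 to 2.86, Fisher's exact test, p = 0.0453 adjusted over 6 words). Within score quintiles the ratio was 1.53, with an interval of 0.880 to 2.65 that includes 1, and the difference no longer passed the test. GATA words were also more frequent in high-scoring peaks, with 6.41% in the highest quintile and 3.66% in the lowest. GFI1 words were in 1.79% of overlapping and 3.92% of other peaks, an odds ratio of 0.446 (0.213 to 0.934, exact test, adjusted p = 0.0877). Within score quintiles the GFI1 ratio was further from 1, at 0.321 (0.135 to 0.765), and its adjusted p of 0.0810 (Mantel-Haenszel, not the exact test) did not pass either. RUNX words were in 10.9% and 8.65%, with an odds ratio of 1.30 (0.923 to 1.82, exact test, adjusted p = 0.281). For PU.1, AP-1 and CEBP the odds ratios were 0.907 (0.551 to 1.49), 0.954 (0.701 to 1.30) and 1.01 (0.660 to 1.56).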

How the data were processed

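V5 ChIP-seq of NB4 cells was analysed from 2 peak lists, 1 for DMSO and 1 for MC2580. Per the submitters' processing notes and the methods of the study, the authors aligned reads to hg38 with Bowtie 4.8.2 (as stated), kept unique matches, and called peaks with MACS against the input and the EV ChIP. The way in which both backgrounds were combined is not given in the sources used here, and the lists share the EV ChIP. The score in each list was deposited by the authors as the caller's own value, and its lowest values were 51.6 in DMSO and 50.0 in MC2580. Depth was unknown.

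The members and gene lists were chosen with earlier results of these data known. Hosts were the containing protein-coding gene of GENCODE version 44. Where several contained the peak (113 peaks), genes other than read-through genes came first, then genes with a symbol, then the shortest. Named were the 12 hosts with most peaks, the 8 highest peaks with and without overlap, examples of each list, GSE1, and the peaks nearest the limit. Classes of peaks were compared by Fisher's exact tests (two-sided) and by Mantel-Haenszel odds ratios within score strata, with Benjamini-Hochberg adjustment and a threshold of 0.05. Intervals are 95% and cover counting error only. Functions were tested on simulated data. The alternatives were other TSS limits, exon and gene definitions, overlap rules, windows, a score minimum, and removal of wide peaks (over 7875 bp) or dense bins. Python 3.11.15, pandas 2.3.3, scipy 1.17.1, statsmodels 0.14.6 and pysam 0.24.0 were used.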

Additional observations from a re-analysis of the deposited data

How the results depend on the processing

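No paired analysis was possible because each condition had 1 library. Of 174 alternative values, 129 kept their direction and their side of the threshold or stayed within their limits. Some of these add nothing. Placing a peak in a gene by its centre repeated the main value of every result, and removing wide peaks left all 2183 intronic peaks in place. The lower overlap of intronic than of distal intergenic peaks passed the test in all 14 alternatives, with odds ratios from 0.408 to 0.767. The cause of the changes below was not tested.

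The number of intronic peaks was 1203 at more than 10 kb from a TSS, 956 with scores of at least 100 and 5477 on all chromosomes, and the hosts with at least 3 peaks then numbered 95, 62 and 441. The median score was 184 with the score minimum and 84.0 on all chromosomes. The overlapping share was 18.5% with the score minimum, 28.6% on all chromosomes, 18.2% for an overlap of 50% of both peaks and 23.1% with a gap of up to 1 kb. The first-intron share was 28.4% beyond 10 kb, 27.1% on all chromosomes and 35.5% with the longest transcript.

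The odds ratio against promoter-class peaks missed the threshold with protein-coding TSSs only (0.998), the score minimum (0.875), 50% of both peaks (0.907), 50% of the shorter peak (0.876) and score strata (0.891, and 0.870 also without dense bins, chosen after seeing the data). The first-intron odds ratio turned to 0.960 on all chromosomes and passed at 1.25 with a gap of up to 1 kb.

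The GATA odds ratio missed the threshold with the score minimum (1.79), on all chromosomes (1.33) and within score strata (1.53). The GFI1 odds ratio passed at more than 1 kb from a TSS (0.461), with protein-coding TSSs only (0.410), for 50% of both peaks (0.375) or of the shorter (0.332), with a gap of up to 1 kb (0.382) and in 400 bp windows (0.457). For words that never passed, the ratio crossed 1 for RUNX with the score minimum (0.803), on all chromosomes (0.908) and within strata (0.981), and for AP-1 at 1 kb (1.01) and 10 kb (1.24). CEBP crossed at 10 kb (0.881), with protein-coding exons only (0.977), the score minimum (0.854), all chromosomes (0.886), 50% of both (0.968), 50% of the shorter (0.996), a gap of up to 1 kb (0.906) and within strata (0.982).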
